A study of Mus musculus with 2 samples.

Results

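The 7 genes described here are long non-coding RNA genes with established names: the nuclear RNAs Neat1 and Malat1, the small nucleolar RNA (snoRNA) host Gas5, the imprinted RNAs H19, Kcnq1ot1 and Meg3, and Miat. They were picked by gene name from the deposited tables of reads per transcript model, and every model assigned to an annotated gene of that name was counted, whatever its class. Reads were found for 6 of the 7, out of 1268 long non-coding genes with reads and 14534 annotated genes with reads. Miat was the gene with none. The tissue was whole heart from male B6CASTF1/J mice aged 2 months, sampled as total RNA at 2 µg per library and read by long-read RNA sequencing, in which a read is meant to follow a transcript through all of its exons. B6CASTF1/J is an F1 hybrid stock whose parents are a C57BL laboratory strain and the wild-derived CAST strain, and the deposited tables do not separate the parental alleles. There was 1 group of 2 libraries, called replicate 1 and replicate 2 after the labels, with no treatment and no second tissue. The labels tie the libraries to separate biosamples from differently numbered animals, yet a further text field gives both the number of the same animal and both carry the same donor entry. The spread between them may therefore be biological or technical.

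Malat1 and Neat1 are transcribed from adjacent genes and stay in the nucleus, where Malat1 gathers at nuclear speckles and Neat1 builds paraspeckles together with RNA-binding proteins. Neat1 is made in a short polyadenylated form and a long form that paraspeckles need, and the long form, like Malat1, gets its 3′ end from RNase P cleavage and is protected by a triple helix that uses a genome-encoded A-rich tract. Gas5 belongs to a class of genes whose introns are processed into snoRNAs, while the spliced RNA is thought to encode little or no protein. H19 and Meg3 are expressed from the maternal chromosome, Kcnq1ot1 from the paternal one, and Kcnq1ot1 silences neighbouring genes on that chromosome. H19 is also the primary transcript of miR-675. Miat, named after a human locus linked to myocardial infarction, is best known as a nuclear RNA of neurons.

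The sequences that the results below turn on are given 5′ to 3′ on the named strand. The first, from Neat1 (chr19:5842287-5842366, minus strand), ends 20 bases past the 3′ end shared by all spliced Neat1 models, and its capitals mark the polyadenylation signal AATAAA. The second is the whole of Gm28006, a small gene typed misc_RNA inside Neat1 (chr19:5844916-5845037, minus strand), with capitals for the 90 bases that are an exon of spliced Neat1 models. The third is the A-rich tract of Malat1 (chr19:5795958-5796029, minus strand), with capitals for its run of 12 A. The next pair comes from the plus strand, opposite Malat1 (chr19:5798971-5799030) and opposite Neat1 (chr19:5834902-5834961), and the capitals mark the 20 genome bases that follow the 3′ end of an unannotated model. After these stands exon 7 of Gas5 (chr1:161037124-161037164, plus strand), which was used in some models and left out of others. These 6 were read from GENCODE M21 transcripts on GRCm38, the build called mm10. The last is the RefSeq start of Gas5 (chr1:161035127-161035195, plus strand) from the promoter table of GRCm38.p6. Its capitals mark TATATA and the pyrimidine run at the first base of the RefSeq transcript.
Neat1 short form, 3′ end: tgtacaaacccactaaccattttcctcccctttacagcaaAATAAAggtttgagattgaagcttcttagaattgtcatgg
Gm28006: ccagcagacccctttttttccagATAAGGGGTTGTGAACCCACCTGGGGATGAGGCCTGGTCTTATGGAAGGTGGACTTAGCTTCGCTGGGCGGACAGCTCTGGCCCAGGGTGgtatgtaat
Malat1 A tract: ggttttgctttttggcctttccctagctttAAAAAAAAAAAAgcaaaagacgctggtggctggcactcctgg
Opposite strand of Malat1, 41 reads: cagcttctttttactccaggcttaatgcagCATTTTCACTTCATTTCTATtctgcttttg
Opposite strand of Neat1, 16 reads: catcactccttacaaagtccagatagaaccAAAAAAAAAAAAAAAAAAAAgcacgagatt
Gas5 exon 7: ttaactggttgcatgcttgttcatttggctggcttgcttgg
Gas5 start: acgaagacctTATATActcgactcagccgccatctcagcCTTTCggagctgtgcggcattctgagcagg

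Depth was 454069 reads and 56790 transcript models in replicate 1, against 661958 reads and 69026 models in replicate 2. Levels are CPM, counts scaled to a library total, here of the reads of annotated nuclear genes, 430251 in replicate 1 and 629896 in replicate 2, so that 0 reads allow up to 3 reads, or 6.97 CPM in replicate 1 and 4.76 CPM in replicate 2. The tissue label held: all 6 cardiomyocyte markers were read and summed to 48839 CPM in replicate 1 and 41361 CPM in replicate 2, led by Myh6, Pln and Myl2. Markers of fibroblasts (4 of 4 read), endothelium (4 of 4), smooth muscle and pericytes (4 of 4) and leukocytes (4 of 4, with Ptprc at 0 and 2 reads) were present too, so the values are those of a mixed tissue. Of the 3 skeletal muscle genes, Myh4 had 0 reads in both libraries, and the 2 that were read, Ckm and Acta1, are also expressed by cardiomyocytes. In such bulk RNA, fewer cells of a type and less RNA per cell cannot be told apart. The 5 erythroid markers summed to 13799 CPM in replicate 1 and 3663 CPM in replicate 2, and all 5 passed the test between libraries described below, as did Myh6 and Col3a1, also higher in replicate 1, and Pln, lower in replicate 1. The part of blood content in the values below was not tested. Long non-coding genes together took 3031 reads (0.704%) in replicate 1 and 4413 reads (0.701%) in replicate 2, and the 7 genes took 71 and 102 of these reads, 2.34% and 2.31%.

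The nuclear RNA Neat1 was the most read of the 7, and the reads of the imprinted genes and Miat were close to or below the depth of these libraries. Neat1 (ENSMUSG00000092274.3, chr19:5824708-5845478, minus strand) had 37 reads in replicate 1 and 60 in replicate 2, which is 86.0 CPM (95% counting interval 60.5 to 119) and 95.3 CPM (72.7 to 123). Malat1 (ENSMUSG00000092341.3, chr19:5795690-5802672, minus strand) had 13 and 11 reads, 30.2 CPM (16.1 to 51.7) and 17.5 CPM (8.72 to 31.2). Neat1 lay above Malat1 in each library without overlap of the intervals, as levels in CPM. Gas5 (ENSMUSG00000053332.13, chr1:161034422-161038539, plus strand) had 11 and 19 reads, 25.6 CPM (12.8 to 45.7) and 30.2 CPM (18.2 to 47.1). Gas5 was under Malat1 in replicate 1 and above it in replicate 2, and their intervals overlapped in both. H19 (ENSMUSG00000000031.16, chr7:142575529-142578143, minus strand) had 5 and 7 reads, 11.6 CPM (3.77 to 27.1) and 11.1 CPM (4.47 to 22.9). Kcnq1ot1 (ENSMUSG00000101609.2, chr7:143203458-143296549, minus strand) had 4 reads in each, 9.30 CPM (2.53 to 23.8) and 6.35 CPM (1.73 to 16.3). The H19 and Kcnq1ot1 levels were indistinguishable at this depth. Meg3 (ENSMUSG00000021268.17, chr12:109541001-109571726, plus strand) had 1 read in each library, 2.32 CPM (0.0588 to 12.9) and 1.59 CPM (0.0402 to 8.85), below what a count of 0 allows. Miat (ENSMUSG00000097767.8, chr5:112213228-112229395, minus strand) had 0 reads in both. By the 3-read limit this allows a level of up to 6.97 CPM in replicate 1 and 4.76 CPM in replicate 2. The kind of interval given for the other genes is wider and reaches 8.57 CPM and 5.86 CPM.

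**Figure D1:**
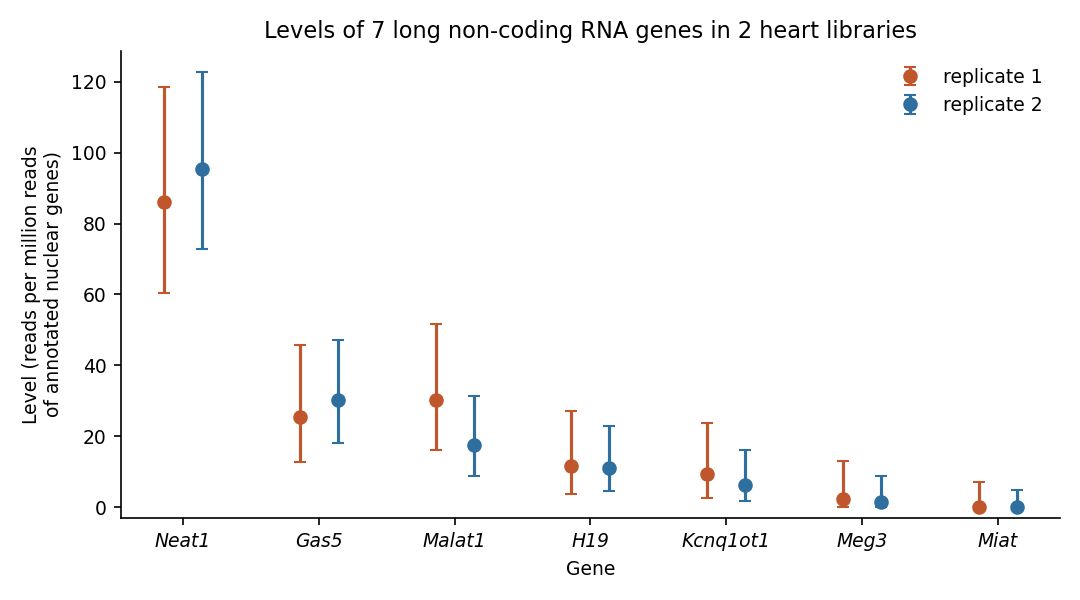
Level of each gene in CPM, replicate 1 left and replicate 2 right, with exact 95% Poisson intervals (for Miat, the bar reaches the limit that 0 reads allow). Neat1 sits at 86.0 and 95.3 CPM above all others, and the intervals of the 2 libraries overlap for every gene.

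Dividing by length changed the order, because the longest annotated transcripts of these genes run from 2.29 kb for H19 to 93.1 kb for Kcnq1ot1. On the scale of CPM per kb of the longest annotated transcript, Gas5 came first at 10.9 ± 1.27 (SD, n = 2 libraries), followed by H19 at 4.97 ± 0.157, Neat1 at 4.36 ± 0.315 and Malat1 at 3.41 ± 1.29. Each neighbouring pair among these 4 overlapped in its counting intervals in both libraries, and Gas5 lay above Neat1 without overlap in replicate 2 alone. Meg3 at 0.134 ± 0.0358 and Kcnq1ot1 at 0.0840 ± 0.0224 CPM per kb lay below Malat1 with no overlap, and overlapped each other. The divisors of Gas5 (2.556 kb, Gas5-218) and Meg3 (14.548 kb, Meg3-209) are lengths of transcripts without reads. The Gas5 models with reads measured 278 to 557 bases. The Gas5 level on this scale, its overlaps and its rank below thus rest on the length of a transcript that was not read. A long read stands for a molecule whatever its length, but the sources used here do not give whether molecules of 20 kb or more were copied in full, and neither scale settles the order.

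Among the 1268 long non-coding genes with reads, the level of Neat1 in CPM ranked 12, between 1810058I24Rik (92.7 ± 19.3 CPM) and Gm10076 (89.1 ± 10.96 CPM). Gas5 ranked 39, next to Rab10os (28.9 ± 11.7 CPM) and level with Lppos at 27.9 ± 3.25 CPM. Malat1 ranked 43 at 23.8 ± 9.02 CPM, between Gm43361 (25.1 ± 4.01) and C130080G10Rik (23.2 ± 9.82). H19 was level at 11.4 ± 0.359 CPM with Zfas1, a snoRNA host like Gas5, and just under Gm19522 (11.4 ± 6.30). Kcnq1ot1 shared its counts with 5 other genes, Gm13008 and Gm43050 among them, and Meg3 shared 1 read in each library with 122 others, A530013C23Rik and 4930563E22Rik among them. The genes that headed the order were Ndufb1-ps (692 ± 29.1 CPM), 1700020I14Rik (200.4 ± 45.4), Gm15543 (174 ± 7.55), Gm49708 (170.02 ± 15.9) and 2900097C17Rik, the mouse counterpart of human NORAD (153 ± 16.5). Ranked by CPM per kb, Gas5 stood at 85, H19 at 182, Neat1 at 211, Malat1 at 269, Meg3 at 1266 and Kcnq1ot1 at 1268.

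**Figure D2:**
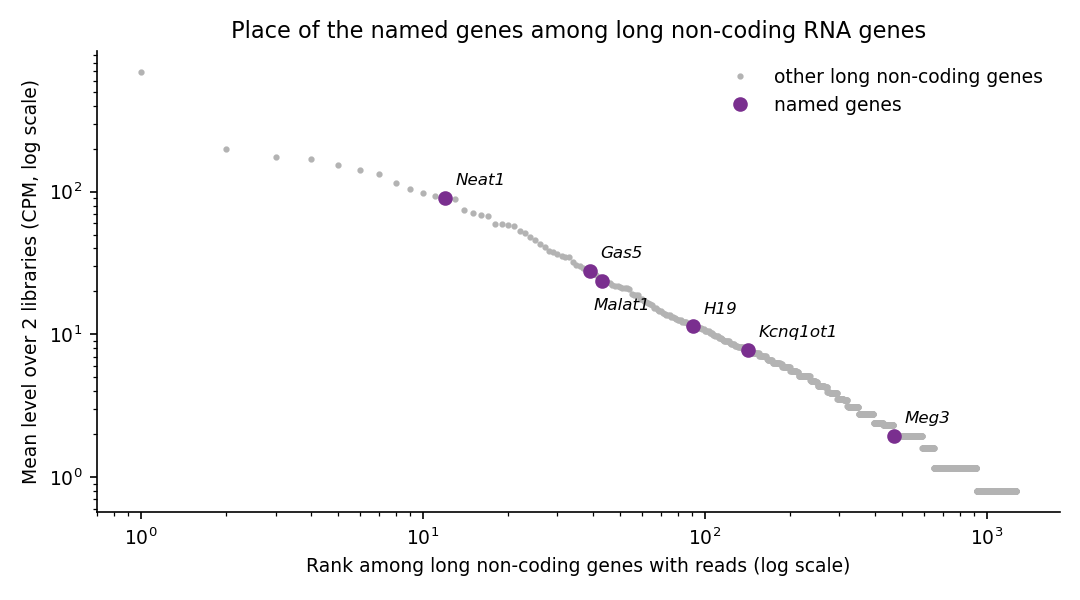
Mean CPM over the 2 libraries against rank for the 1268 long non-coding genes with reads, both axes on log scales, grey for other genes and purple for the named ones. Neat1 is at rank 12 and Meg3 on the step of genes with 1 read in each library.

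The libraries were then compared with each other, gene by gene, to see how far the levels repeat. Of the 7 genes, 4 had the minimum of 10 summed reads: Neat1, Malat1, Gas5 and H19. None of the 4 passed the exact two-sided binomial test (adjusted p under 0.05), where 56 of 8098 genes, 0.692%, passed and 26, 0.321%, also differed at least 2-fold. The ratio of replicate 1 over replicate 2 was 0.903 for Neat1 (95% interval 0.583 to 1.38, exact test, adjusted p = 1). It was 0.848 for Gas5 (0.364 to 1.87, adjusted p = 1), 1.05 for H19 (0.262 to 3.83, adjusted p = 1) and 1.73 for Malat1 (0.715 to 4.27, adjusted p = 0.920), all in the same exact test. The intervals allow Malat1 to differ up to 4.27-fold, so the test shows no difference at this depth and does not show equality. An unadjusted p under 0.05 was found for 0 of the 4 and for 579 of all genes tested. The median log2 ratio was -0.02 over the 4 and 0.01 over all genes tested. These tests cover counting error between 2 libraries only.

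Neat1 reads fell on a single-exon model of 20771 bases, with a minority on spliced models of the gene's 5′ end. Neat1-201, the annotated single-exon transcript, held 34 of 37 reads in replicate 1 and 52 of 60 in replicate 2, a share on known models of 91.9% (exact 95% interval 78.1 to 98.3) and 86.7% (75.4 to 94.1). The median share over the 5316 genes that had 10 or more reads in both libraries was 81.8% in replicate 1 and 81.2% in replicate 2. The length given for Neat1-201 is that of the annotation, and the lengths of its reads are not in the tables used here. Known models over 20 kb took 46 and 74 reads in all, of which Neat1-201 and Kcnq1ot1 together took 38 and 56, whereas the longest spliced model outside the annotation measured 13927 bases in replicate 1 and 13410 in replicate 2. The annotation holds no unspliced model that ends at the 3′ end of the short form. Unspliced reads of the short form and reads of the long form therefore cannot be told apart in these counts.

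The 3 remaining reads of replicate 1 and the 8 of replicate 2 came from 9 spliced models of 2420 to 3058 bases. All 9 ended at chr19:5842307, the annotated 3′ end of Neat1-202, 3172 bases from the first base of the gene. The last 20 bases up to that end begin with the AATAAA printed above, and AATAAA or ATTAAA was present on the transcript strand in the last 40 bases of 32.6% of all GENCODE M21 transcripts. The 20 genome bases after the end hold 4 A, the median of all such windows of Neat1. The spliced reads were thus assigned to models with the 3′ end of the short form. No spliced model was shared between the libraries as a whole chain of introns, but single introns were.

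The models used 8 introns of 112 to 607 bases, 7 of them with GT and AG at their ends. The annotation holds 2 of the 8. Of the 6 others, 5 had GT and AG, and the last, in the genomic class with 1 read, had GC and AG. An intron of 143 bases (chr19:5844435-5844577, annotated) had 2 reads in replicate 1 and 4 in replicate 2. An intron of 166 bases (chr19:5844759-5844924, annotated) and an intron of 351 bases (chr19:5845015-5845365, not annotated) each had 2 reads in each library. A 2-exon model with the 351-base intron as its only intron had 1 read, in replicate 2. It was deposited in the incomplete splice match (ISM) class, although that intron was not found in the annotation, and this conflict was not resolved. The unannotated intron of 351 bases and the annotated one of 166 bases frame the 90-base exon that lies within Gm28006. The splice sites of these 3 introns are shown because both libraries held them, with exon bases in capitals.
143-base intron, donor: ATTTTGgtaaag
143-base intron, acceptor: ttatcactatagTGTTCA
166-base intron, donor: AGGGTGgtatgt
166-base intron, acceptor: tttatttttcagATAGCA
351-base intron, donor: ATGGGGgtgcga
351-base intron, acceptor: ctttttttccagATAAGG

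**Figure D3:**
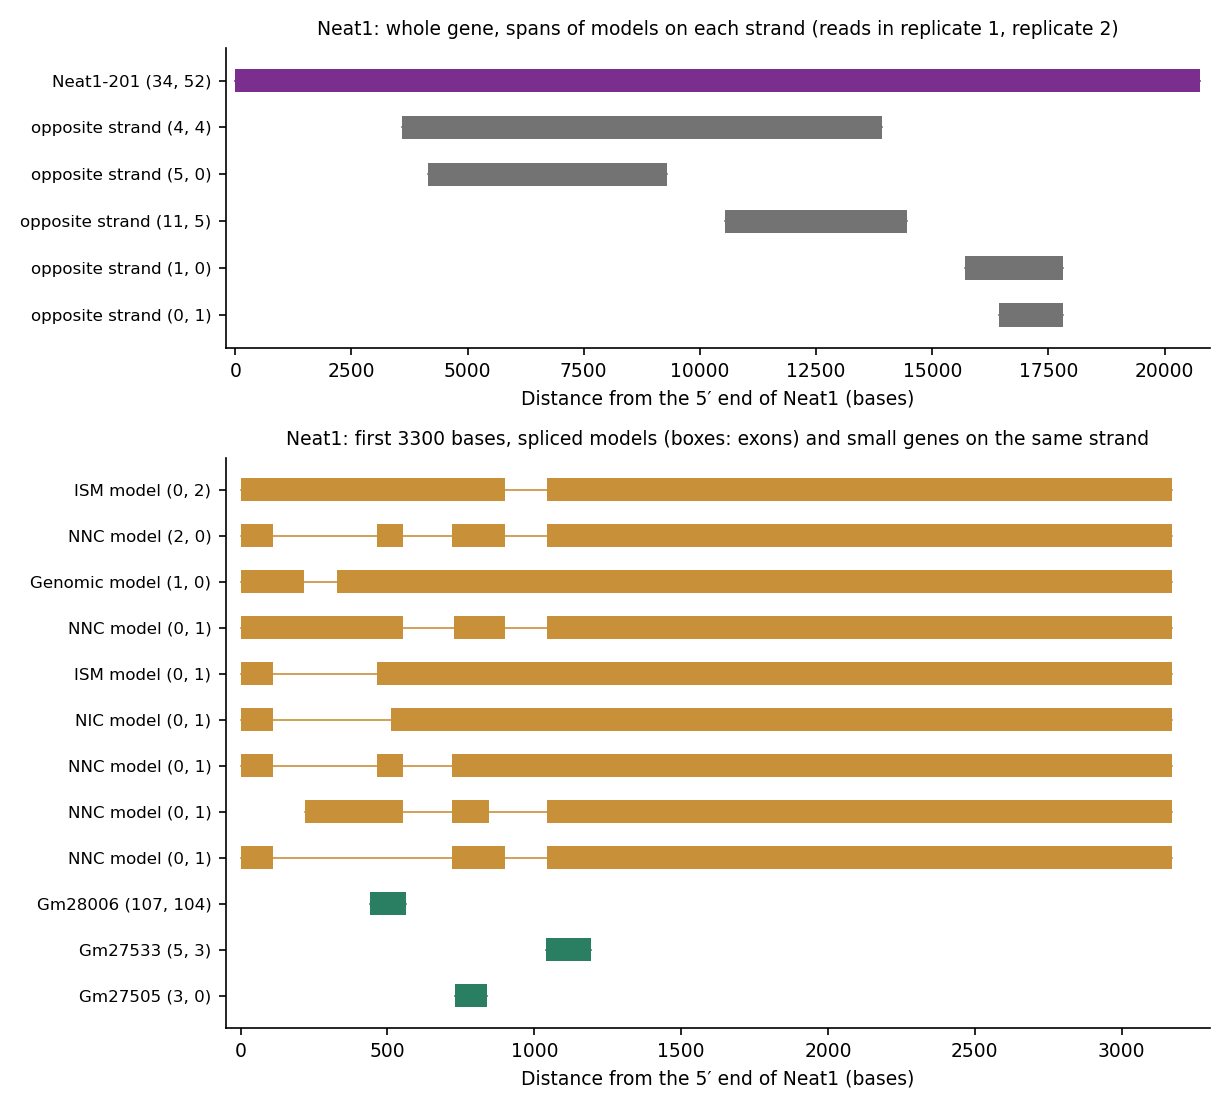
Models over Neat1 by distance from its 5′ end in bases, with reads in replicate 1 and replicate 2 in brackets. The upper panel spans the gene, with models of the opposite strand that share a 3′ end drawn as a joint span in grey, and the lower panel shows the spliced models (boxes for exons) and 3 small genes of the same strand. All 9 spliced models end together, and Gm28006, at 107 and 104 reads, lies over the 90-base exon of some of them.

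More reads were assigned to a small gene inside Neat1 than to Neat1. Gm28006, 122 bases long and on the Neat1 strand, had 107 reads in replicate 1 and 104 in replicate 2, 249 and 165 CPM. That was most of the 123 and 115 reads of all misc_RNA genes. Its ratio of replicate 1 over replicate 2 was 1.51 (95% interval 1.14 to 1.99), with adjusted p = 0.219 in the exact binomial test over all genes. The other small genes there were Gm27533 with 5 and 3 reads and Gm27505 with 3 and 0 reads. Summed over the libraries, reads of other annotated genes lying wholly inside a gene on its strand equalled or outnumbered its own reads in 24 of 8098 genes tested, 0.296%. Counted together, Neat1 and the small genes reached 152 and 167 reads, or 353 and 265 CPM, which would rank 2 among long non-coding genes, and Neat1 models then held 24.3% and 35.9% of the reads. The ratio of the combined locus was 1.33 (1.06 to 1.67), in the other direction from that of Neat1 models alone, and did not pass the exact test (adjusted p = 0.438). Which molecules the reads of Gm28006 come from was not tested.

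Malat1 was read as a single model and had more reads on its opposite strand than on its own. All 13 reads of replicate 1 and all 11 of replicate 2 fell on Malat1-201, the single-exon transcript of 6983 bases, and none on the 3 other annotated transcripts. The A-rich tract shown above ends 298 bases before the annotated end of Malat1-201. It is the only run of at least 10 A in the transcript. Unannotated loci on the plus strand over Malat1 held 19 reads in replicate 1 and 33 in replicate 2, which is 44.2 and 52.4 CPM. They made up 59.4% (exact 95% interval 40.6 to 76.3) and 75.0% (59.7 to 86.8) of these and the Malat1 reads together. An equal split lies within the interval of replicate 1 but not within that of replicate 2. Summed over the libraries, reads of unannotated opposite-strand loci equalled or outnumbered the gene's own in 81 of 8098 genes tested, 1.00%, and were present at all in 42.3%.

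The opposite-strand reads of Malat1 came from the same pair of single-exon models in each library. A model that ends at chr19:5799000 had 15 reads in replicate 1 and 26 in replicate 2, and its start differed by 1 base between the libraries (5798023 and 5798022). A shorter one, chr19:5797004-5797464, had 4 and 7 reads. Each bound of the shorter model is also a bound of some annotated Malat1 exon, not necessarily of the same one. Position 5799000 is also the 3′ bound of Gm27694, a small gene on the Malat1 strand with 1 and 0 reads. The 20 bases after these ends held 4 and 6 A, against a median of 6 over all windows of that strand. How reads were given a strand was not stated in the sources used here, and whether these reads are antisense RNA or Malat1 RNA was not tested.

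Neat1 also had reads on its opposite strand, but at ends of another kind. The plus strand held 21 reads in replicate 1 and 10 in replicate 2, 36.2% (24.0 to 49.9) and 14.3% (7.07 to 24.7) of the reads of unannotated opposite loci and of Neat1 models together. These reads came from models with 5 different 3′ ends, and 4 of the 5 ends were followed by at least 12 A in the next 20 genome bases. Those 4 ends took all 21 reads of replicate 1 and 9 of 10 in replicate 2. The most used end, at chr19:5834931 with 11 and 5 reads, is followed by 20 A in 20 bases, as printed above, and the next, at chr19:5841883 with 4 and 4 reads, by 18. Windows with at least 12 A make up 2.85% of that strand of Neat1. The part of genome-encoded A in these reads was not tested.

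**Figure D4:**
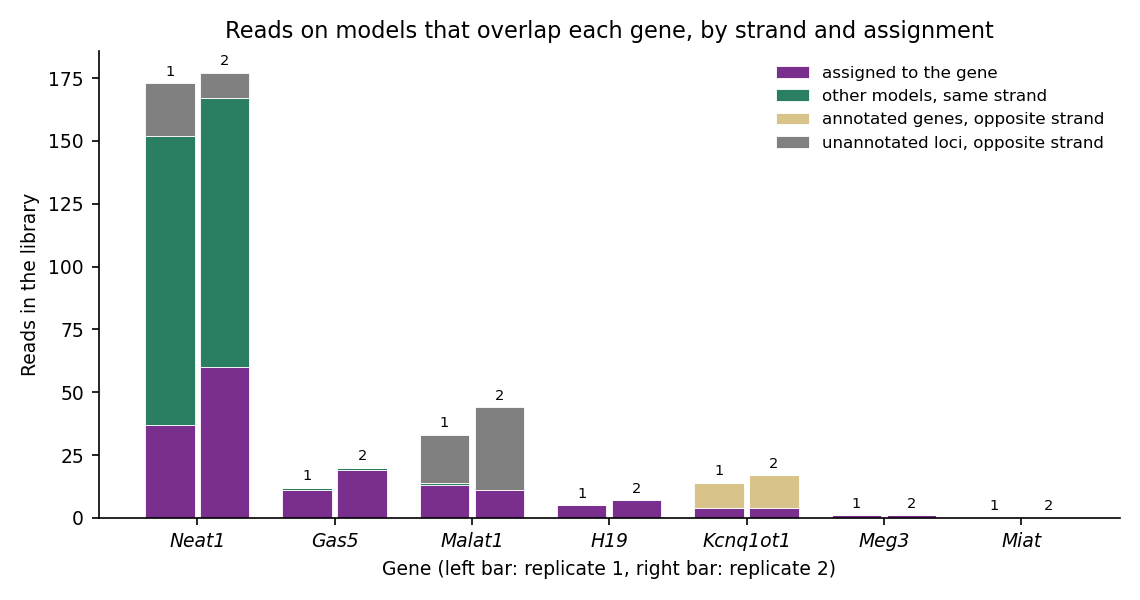
Reads on models that overlap each gene, stacked by assignment, with replicate 1 as the left bar and replicate 2 as the right. Neat1 carries 115 and 107 reads of other models on its own strand, and Malat1 carries 19 and 33 reads of unannotated loci on the opposite strand.

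Gas5 was read as spliced RNA in many forms. Its 11 reads in replicate 1 and 19 in replicate 2 were all spliced and fell on 9 models of 278 to 557 bases, 3 of which were read in both libraries. The annotation lists 25 Gas5 transcripts, and 4 of them were read. Gas5-210, with 11 exons, had 3 and 8 reads, and Gas5-224, with 12 exons, had 4 and 6. The annotated Gas5-216 had 1 and 0 reads and Gas5-209 had 0 and 1. Known models held 72.7% (39.0 to 94.0) and 78.9% (54.4 to 93.9) of its reads, a difference that did not pass Fisher's exact test (adjusted p = 1). The same test passed for none of the 3 genes with enough reads (Neat1, Gas5 and Malat1), and for 3 of 5316 genes, 0.0564%.

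The models differed mainly in which internal exons they held. Exon 7, 41 bases long and printed above, is held by Gas5-224 and missing from Gas5-210. The first exons of these models also differ, starting at 161035163 in Gas5-224 and at 161035067 in Gas5-210. Exon 7 was present in 4 of 10 reads that span it in replicate 1, 40% (exact 95% interval 12.2 to 73.8). In replicate 2 it was present in 8 of 19, 42.1% (20.3 to 66.5). The intervals of the libraries overlapped over most of their width. A 6-exon model of 278 bases, absent from the annotation but built from known splice sites, went from exon 4 straight to exon 11 and had 2 reads in replicate 1 and 1 in replicate 2. Gas5-209 left out exons 7 to 10, and a model of 8 exons left out exons 2, 4, 5 and 7.

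The small RNA genes of Gas5 had almost no reads of their own. All 10 annotated small RNA genes inside Gas5 on its strand lie in introns of Gas5-224, spread over 9 of its 11 introns. Mir5117 and Gm25789 also lie inside exons of Gas5-216, a model with 1 and 0 reads. Of these 10 genes, 9 had 0 reads in both libraries, Snord78, Snord47 and both genes named Snord80 among them. The exception was Mir5117, typed snoRNA in the annotation, with 1 read in each library. How well RNAs of this size are kept in such libraries was not measured. At the 5′ end, the RefSeq start at position 161035166 is also the first base of the 6-exon model and of Gas5-209. The most read models have other starts, Gas5-210 at 161035067, upstream of the TATATA, and Gas5-224 at 161035163. Both are annotated transcripts, and where their reads begin is not given in the sources used here. The first 5 bases from the RefSeq start, CTTTC, are a C followed by pyrimidines, the pattern of genes whose translation follows nutrient supply. A start with C and 4 pyrimidines was found in 2.51% of the 32851 RefSeq promoters. TATATA, which reads the same on both strands, begins 29 bases before the RefSeq start of Gas5. It was found anywhere in the 300-base window in 5.67% of the promoters.

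H19 was the most read of the 3 imprinted RNAs. H19-202, the transcript of 5 exons and 2286 bases, held all 5 reads of replicate 1 and 6 of 7 in replicate 2, and H19-203 held the last. All 12 reads were spliced and on known models. Mir675, which lies in exon 1 of H19-202 (chr7:142577064-142577147), had 0 reads of its own in both libraries. Igf2, the growth factor gene that shares enhancers with H19 and is expressed from the other parental chromosome, had 0 reads in both libraries, as had Ins2, Nctc1 and Tnnt3. The other H19 neighbours, Mrpl23 (84.0 ± 6.99 CPM, a mitochondrial ribosomal protein gene) and Lsp1 (25.0 ± 10.7 CPM, an actin-binding protein of leukocytes), did not pass the test between libraries.

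Kcnq1ot1 runs antisense to Kcnq1, a potassium channel gene of the heart, and both genes had reads. The 4 Kcnq1ot1 reads in each library fell on the single annotated transcript of 93092 bases with 1 exon. Kcnq1 had 11 reads in replicate 1 and 14 in replicate 2 (23.9 ± 2.36 CPM), 10 and 13 of them on models that span Kcnq1ot1, and all of these were spliced models of 7 to 17 exons. A single-exon read inside a Kcnq1 intron needs its strand to be told from unspliced Kcnq1 RNA, so the Kcnq1ot1 level is uncertain. Of the 7 genes of the domain that were listed, 4 were read and tested. None of the 4 passed, which is close to the share of 0.692% over all genes tested. Nap1l4, a histone chaperone gene at the domain's edge, had 61 and 78 reads (133 ± 12.7 CPM). Cdkn1c, the cell cycle inhibitor silenced on the paternal chromosome, had 41 and 70 reads (103 ± 11.2 CPM), and Cars, a tRNA synthetase gene, 9 and 22 (27.9 ± 9.91 CPM). Phlda2, Slc22a18 and Trpm5 had 0 reads in both.

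Meg3 was at the limit of detection, with no read on any of its 11 annotated transcripts. Its single read in replicate 1 lay on a genomic-class model of 4 bases (chr12:109571719-109571722), and its single read in replicate 2 on an unspliced genomic-class model of 1189 bases (chr12:109559189-109560377). Without genomic models Meg3 had 0 reads. Of 5 listed genes of its imprinted domain, Rian had 1 and 0 reads, Begain 0 and 1, and Dlk1, Rtl1 and Mirg 0 in both. Miat had 0 reads over 6 annotated transcripts, while Tpst2, a neighbour that encodes a sulfotransferase, had 22 and 61 (74.0 ± 32.3 CPM, adjusted p = 0.396 in the exact test), Cryba4 4 and 3, and Crybb1 0.

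The genes tested were 2 around Malat1 and Neat1, 1 next to Gas5 and 8 of the paraspeckle proteins. None passed the test between libraries, where 56 of 8098 genes, 0.692%, did. With so few genes, a count of 0 is close to that share and does not set them apart. Around Malat1 and Neat1, Frmd8, which binds the iRhom proteins, had 15 and 13 reads (27.8 ± 10.1 CPM), and Ltbp3, a TGF-beta binding protein, had 1 and 7. Next to Gas5, Cenpl had 0 and 2 reads and Zbtb37 had 1 and 0. Of 9 paraspeckle proteins, 8 were read and 1, Taf15, had 0 reads. The highest were Hnrnpk (165 and 293 reads, 424 ± 57.7 CPM), Ewsr1 (64 and 123, 172 ± 32.9 CPM) and Nono (36 and 44, 76.8 ± 9.77 CPM), all RNA-binding proteins. The median log2 ratio of the 8 was -0.17, against 0.01 over all genes, and 0 of the 8 passed.

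Other long non-coding RNAs of the same kinds ranged in level from 0 reads to 2900097C17Rik, at 61 and 104 reads. Of 15 annotated snoRNA hosts besides Gas5, 12 were read, and their sum of 97.6 CPM in replicate 1 and 117 CPM in replicate 2 was led by Snhg9 (26.0 ± 10.4 CPM), Snhg8 (14.5 ± 2.52 CPM) and Snhg20 (12.6 ± 4.65 CPM). Among 9 annotated miRNA hosts, the 3 read were Dleu2 (9.78 ± 2.60 CPM), Mir99ahg (9.41 ± 0.162 CPM) and Mir22hg (5.92 ± 5.09 CPM). Of 6 other imprinted RNAs, 4 were read, led by Peg13 (10 and 9 reads), Snhg14 (4 and 9) and Airn (4 and 4). Of 12 further regulatory RNAs, 7 were read: 2900097C17Rik led, followed by Mhrt, an RNA antisense to the Myh7 locus in mouse heart (29 and 32 reads, 59.1 ± 11.7 CPM), and Firre (2 and 4 reads). Xist, Tsix, Pvt1, Carmn and Fendrr had 0 reads in both libraries. In these 4 lists 6, 2, 2 and 2 genes were tested, and none passed the test between libraries. That is close to the share of 0.692% over all genes tested.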

How the data were processed

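Each library came with a deposited table of raw counts, whole numbers of reads assigned to each transcript model. Alignment to mm10 and comparison with GENCODE M21 are given in the text files the authors deposited, and their annotation files name TALON as the source of models that GENCODE lacks. Per the file headers, each model has a class: known, incomplete splice match (ISM), NIC (known splice sites newly combined), NNC (at least 1 unannotated splice site) or genomic (overlapping a gene without its splice sites). The sources used here do not give the aligner, the priming, how strand was assigned, how model ends were set or any version.

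Reads of all classes were summed per gene and scaled to CPM. Intervals (exact Poisson, Clopper-Pearson, 95%) and the 3-read limit of a count of 0 cover counting error only. The libraries were compared by an exact two-sided binomial test with Benjamini-Hochberg adjustment over 8098 genes with at least 10 summed reads, and shares on known models by Fisher's exact test, called at 10 points or more. Log2 ratios used a pseudocount of 0.5. Both tests were tested on simulated data. Alternatives were other denominators, classes, minimum reads, CPM per kb and adding same-strand loci.

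The genes and lists were chosen with earlier results of these data known. Named were all 7 genes, the 5 highest long non-coding genes, those just above and below each of the 7, and in each list the 3 highest and any that passed (marker lists mainly as sums; some list genes are not reported here), plus genes singled out at 0 or few reads, which were picked with their values in view. The checks of overlapping loci, strand, 3′ ends and introns were added after looking at the data. With no genome at hand, 3′ ends were read only inside single-exon transcripts. Python 3.11.15, pandas 2.3.3, SciPy 1.17.1 and matplotlib 3.10.9 were used.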

Additional observations from a re-analysis of the deposited data

Results flagged for a closer look

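Outside the counts of the named genes, reads of unannotated loci or of small genes on the same strand exceeded 3 reads in both libraries at 3 places. The spliced Kcnq1 reads opposite Kcnq1ot1, described above, are not included here. Gm28006, inside Neat1 on the same strand, averaged 206.9 ± 59.1 CPM (107 and 104 reads), above Neat1 at 90.6 ± 6.55 CPM. Unannotated loci opposite Malat1 averaged 48.3 ± 5.82 CPM (19 and 33 reads), above Malat1 at 23.8 ± 9.02 CPM. Unannotated loci opposite Neat1 averaged 32.3 ± 23.3 CPM (21 and 10 reads). No explanation was tested for any of the 3.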

How the results depend on the processing

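The summed level of the 7 genes, 163 ± 2.18 CPM, moved to 157 with all mouse reads and 155 with all reads of the table as denominator, to 145.0 with known models alone, to 160.4 without genomic models, to 385 with same-strand models of other loci added and to 23.9 as CPM per kb. Without either replicate it was 162 to 165. Genes that passed the test between libraries numbered 56 and called genes 26, against 364 and 70 with ERCC spike-in reads as denominator and 15 called with known models alone. Genes that passed the test of known-model shares numbered 3, against 61 with incomplete splice matches counted as known. The number of the 7 that passed either test was 0 under every alternative run. Only genes with enough reads entered, in the main setting 4 of the 7 in the binomial test and 3 in Fisher's. Miat, with 0 reads, could not be tested. The log2 ratio of H19, 0.10, became -0.16 with the ERCC denominator, and that of Neat1, -0.14, became 0.41 with same-strand loci added, and neither passed the test under either setting. No paired analysis was possible because there is 1 group. With 8 reads or fewer in a library, as for H19, Kcnq1ot1 and Meg3, a level is known only within wide counting limits.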

Other observations

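The single-exon transcripts of these genes differ in how many runs of at least 10 A they hold, but also in length. Kcnq1ot1-201 has 93092 bases, Malat1-201 has 6983 and Neat1-201 has 20771, and the counts that follow are not scaled to length. Kcnq1ot1-201 holds 10 such runs, the longest of 41 A, with 33.3% A overall. Malat1-201 holds 1, of 12 A, with 28.6% A. Neat1-201 holds 0, with a longest run of 7 A and 22.7% A, while its opposite strand holds 5 runs of at least 10 A. The opposite strand of Malat1 holds 0 and that of Kcnq1ot1 holds 9.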
